A study of Homo sapiens with 29 samples.

Results

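RNA of nuclear genes was listed at 1642 windows of the mitochondrial hnRNPA1 immunoprecipitation, and 170 of these windows (10.4%) shared at least 1 base, on the same chromosome and strand, with a window listed for the whole-cell immunoprecipitation. The 170 shared windows lie in 157 genes. They are described here as stretches of nuclear-encoded RNA that the authors' peak caller listed both in the mitochondrial fraction and in whole-cell lysate. The windows were selected on their positions in these deposited lists, that is, on which windows the peak caller listed, so signal values, ranks and gene classes from the same lists are given as descriptions without a test. The knockdown libraries were not used in the choice.

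The cells were HEK293, an established line from human embryonic kidney. Of the 29 samples, 21 were RNA immunoprecipitation (RIP) libraries of untreated cells, in which beads carried an antibody against hnRNPA1 or normal IgG as the background. Whole-cell lysate gave 3 IgG and 3 hnRNPA1 libraries, cytosol 4 and 4, and mitochondria 3 and 4. The other 8 libraries held total RNA of HEK293 cells after control siRNA (4 libraries) or after siRNA targeting hnRNPA1 (4 libraries). The labels describe no second siRNA and no rescue, describe the RIP RNA as strongly degraded, and mention 1 unnamed sample with a poor library. Nothing in the labels says that replicates were grown apart, and the p-values below then reflect a spread that may be technical. The RIP arm was deposited as 1 list per compartment with no value per library, so its depth and replicate spread are unknown. Which list the poor library entered was not tested. From the value steps, 16605300 (knockdown library 4) to 22054600 (knockdown library 3) reads per siRNA library were estimated. All 8 HEK293 markers looked for were in the gene table, at levels that differed widely. Over the 8 libraries VIM had 8167 to 9438 normalised reads, while PAX2 had 4.92 to 16.9. LHX1 had 91.1 to 132, NEFM 73.8 to 168 and EYA1 116 to 221. Only 1 of 5 endothelial, 4 of 7 fibroblast and 1 of 5 lymphocyte markers were in the gene table. Their highest value was 127 (PDGFRA), within the ranges of LHX1, NEFM and EYA1. None of these markers passed the knockdown test.

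hnRNPA1 is a member of the heterogeneous nuclear ribonucleoproteins, proteins that coat nascent RNA in the nucleus and take part in splicing, export and turnover. It carries a pair of RNA recognition motifs and a glycine-rich region, shuttles between nucleus and cytoplasm, and is known to favour RNA with UAGG cores. Mitochondria hold their own small genome, while nearly all mitochondrial proteins are encoded in the nucleus, translated in the cytosol and imported. RNA of nuclear genes in a mitochondrial fraction can lie on the outer surface or come from other compartments that sediment with it, and a fraction alone does not separate these.

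Windows were 500 bases long and followed a grid laid from each gene's own start. All 8095 genes in the 3 lists had windows in 1 grid phase, and 41.4% of the 14416 windows with a RefSeq gene start lay a whole multiple of 500 bases from that start in GRCh38.p14, against 0.2% at any 1 phase. The lists do not name their build. Coordinates below are those of the lists, and sequences and gene spans come from RefSeq (GRCh38.p14). No genome sequence was used here, so sequence is shown only where a RefSeq promoter or miRNA lies inside a shared window. Promoters run from 250 bases before to 50 bases after the gene start. Of the 170 windows, 5 (2.94%) shared bases with a promoter on their own strand, beside 0.544% of the 1472 mitochondrial windows that were not shared and 13.8% of the 12979 nuclear whole-cell windows. The sequences below were chosen after the values were seen, because they are the 3 longest own-strand stretches that RefSeq promoters covered, with the ADAMTS13 window as one covered from the opposite strand. Capitals mark the bases inside the shared window and are written 5′ to 3′ on the strand of the RNA. PFN1 encodes profilin, an actin-binding protein, and its promoter spans chr17:4948481-4948780 on the minus strand, of which 172 bases lie in the window chr17:4948152-4948652. BTG1-DT is a divergent transcript of the BTG1 gene, with the promoter chr12:92145835-92146134 on the plus strand and 239 bases in the window. STX16, a syntaxin of the Golgi, has the promoter chr20:58651033-58651332 on the plus strand with 80 bases in the window. The ADAMTS13 window, chr9:133417858-133418358 on the plus strand, covers the whole promoter of the neighbouring REXO4 gene from the opposite strand, and the reverse complement of that promoter (chr9:133417961-133418260) is printed.
PFN1: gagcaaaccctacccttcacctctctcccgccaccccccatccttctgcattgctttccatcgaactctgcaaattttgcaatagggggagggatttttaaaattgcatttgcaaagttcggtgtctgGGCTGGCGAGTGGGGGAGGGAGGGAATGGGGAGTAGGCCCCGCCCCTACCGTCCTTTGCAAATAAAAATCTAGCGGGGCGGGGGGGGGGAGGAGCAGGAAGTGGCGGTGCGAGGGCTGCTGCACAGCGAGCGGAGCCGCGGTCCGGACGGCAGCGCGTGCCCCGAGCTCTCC
BTG1-DT: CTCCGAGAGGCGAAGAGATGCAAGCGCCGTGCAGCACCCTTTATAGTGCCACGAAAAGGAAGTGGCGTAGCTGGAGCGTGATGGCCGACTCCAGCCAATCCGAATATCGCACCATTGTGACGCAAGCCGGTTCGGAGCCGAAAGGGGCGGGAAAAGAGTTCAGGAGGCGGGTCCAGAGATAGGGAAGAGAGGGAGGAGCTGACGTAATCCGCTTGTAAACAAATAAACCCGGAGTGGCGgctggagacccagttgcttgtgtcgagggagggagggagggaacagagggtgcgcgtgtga
STX16: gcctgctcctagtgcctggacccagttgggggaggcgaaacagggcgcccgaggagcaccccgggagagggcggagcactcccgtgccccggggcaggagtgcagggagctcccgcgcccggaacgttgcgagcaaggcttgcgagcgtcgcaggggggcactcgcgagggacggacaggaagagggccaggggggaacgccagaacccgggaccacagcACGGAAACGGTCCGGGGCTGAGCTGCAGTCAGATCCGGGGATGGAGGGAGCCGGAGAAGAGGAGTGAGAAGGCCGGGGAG
ADAMTS13 window: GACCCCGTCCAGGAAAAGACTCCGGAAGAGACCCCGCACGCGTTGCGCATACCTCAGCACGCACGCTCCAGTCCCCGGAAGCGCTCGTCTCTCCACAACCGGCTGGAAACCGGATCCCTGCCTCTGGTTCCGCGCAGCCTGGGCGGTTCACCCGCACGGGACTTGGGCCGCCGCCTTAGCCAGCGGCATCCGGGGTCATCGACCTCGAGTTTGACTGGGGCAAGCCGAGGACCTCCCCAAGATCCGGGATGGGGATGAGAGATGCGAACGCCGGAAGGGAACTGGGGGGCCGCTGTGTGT
Read on the printed strand, the motif TAGG occurred in the capitals of PFN1 and BTG1-DT and TAGGG in those of BTG1-DT, while neither occurred in the capitals of STX16 and ADAMTS13. TTAGGG occurred in none of these 4 stretches. The matches in PFN1 and BTG1-DT lie before the RefSeq gene start used for each promoter. They are thus outside the RNA that RefSeq places from that start. Over whole promoters and both strands, TAGG is in 71.5% of 35116 RefSeq promoters of this length, TAGGG (which contains TAGG) in 32.8% and TTAGGG (which contains both) in 9.05%. A match is a description and not a binding site. The PFN1 window had a mitochondrial signal value of 1.32 and a whole-cell value of 2.18, BTG1-DT 1.51 and 2.11, STX16 1.22 and 1.09, and ADAMTS13 1.49 and 1.21.

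A miRNA lay inside the bases that a pair of windows shared. The window of FSTL1, which encodes the secreted glycoprotein follistatin-like 1, ran over chr3:120395293-120395793 on the minus strand and overlapped a whole-cell window assigned to MIR198 by 125 bases. MIR198 lies within FSTL1 and its hairpin is read from the same strand. The whole mature miRNA (chr3:120395703-120395724) fell in these shared bases. It is printed with its seed, bases 2 to 8, in capitals.
hsa-miR-198: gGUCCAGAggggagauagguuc
UAGG stands at bases 16 to 19 of its 22 bases. The whole-cell MIR198 window had a signal value of 2.52 and the mitochondrial FSTL1 window 0.76. Mature miRNA and host transcript cannot be told apart in windows of this length. FSTL1 had 2953, 2706, 2568 and 2617 normalised reads in the control libraries and 2143, 2198, 2488 and 2394 in the knockdown libraries, so that the groups did not overlap. Its log2 fold change of -0.23 (SE 0.075) did not pass the limma test after Benjamini-Hochberg adjustment over all genes (adjusted p = 0.12).

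Of the 170 windows, 153 had the same start, end and strand as a whole-cell window, and 17 overlapped only in part, by 30 to 499 bases (median 168). In all, 152 overlapped a window assigned to the same gene ID, each over 500 bases, and 18 overlapped only windows of another ID. Together they touched 201 whole-cell windows, 1.55% of the 13007 in that list. Just inside the rule were the windows of ENSG00000285304 (30 bases shared with a PDXP window), SNRPD3 (49 bases) and PINX1 (62 bases). SNRPD3 encodes a core protein of the spliceosomal small ribonucleoproteins and PINX1 a telomerase inhibitor. Just outside were 155 windows that only touched the end of a whole-cell window. Among them, HDGF, a growth factor gene, had a mitochondrial signal value of 2.36, PPIA, which encodes cyclophilin A, 2.25, and ENSG00000286037 2.23. Of the windows that were not shared, 1045 (71.0%) still lay in a gene with a whole-cell window somewhere else. Their median distance to the nearest whole-cell window was 7500 bases, over all 1472.

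The signal value is the authors' own score for a peak. No source gives its scale or log base, and it is used only to rank windows within a list. Shared windows had mitochondrial signal values from 0.70 to 3.40 with a median of 1.26, beside a median of 1.24 for the windows that were not shared. Their whole-cell signal values ran from 0.71 to 3.80, with a median of 1.175 beside 1.22 over that list. Where a shared window overlapped several whole-cell windows, the highest of their values is given here and below. That value can belong to a window of another gene ID. The median rank was percentile 52.1 in the mitochondrial and 45.5 in the whole-cell list. Across the 170 windows, the ranks in the lists had a Spearman rho of 0.081, as a description over windows that share lists and in part genes. Of the 170, 43 lay above percentile 50 of both lists, with ties at the middle rank. Unrelated ranks also place windows there, and the count was not compared with that share.

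The windows that ranked high in both lists were pseudogenes and genes without a RefSeq symbol. Above percentile 90 there were 20 shared windows in the mitochondrial list, 42 in the whole-cell list, and 9 in both. ENSG00000250697 (chr5:33162139-33162639, minus strand) led with 3.40 in mitochondria and 3.30 in whole cell. RPS15P4, RPL26P19 and RPL5P34, copies of ribosomal protein genes, had mitochondrial values of 2.69, 2.68 and 2.54 and whole-cell values of 2.12, 2.66 and 2.53. SERBP1P1, a copy of the gene of the mRNA-binding protein SERBP1, had 2.47 and 2.07. RPS27AP16 had 2.10 and 3.01, and RPL3P4 had 1.98 and 2.54. The remaining pair were ENSG00000267458 with 2.68 and 2.7, which lies opposite CALR, and ENSG00000244313 with 1.94 and 2.06.

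**Figure D1:**
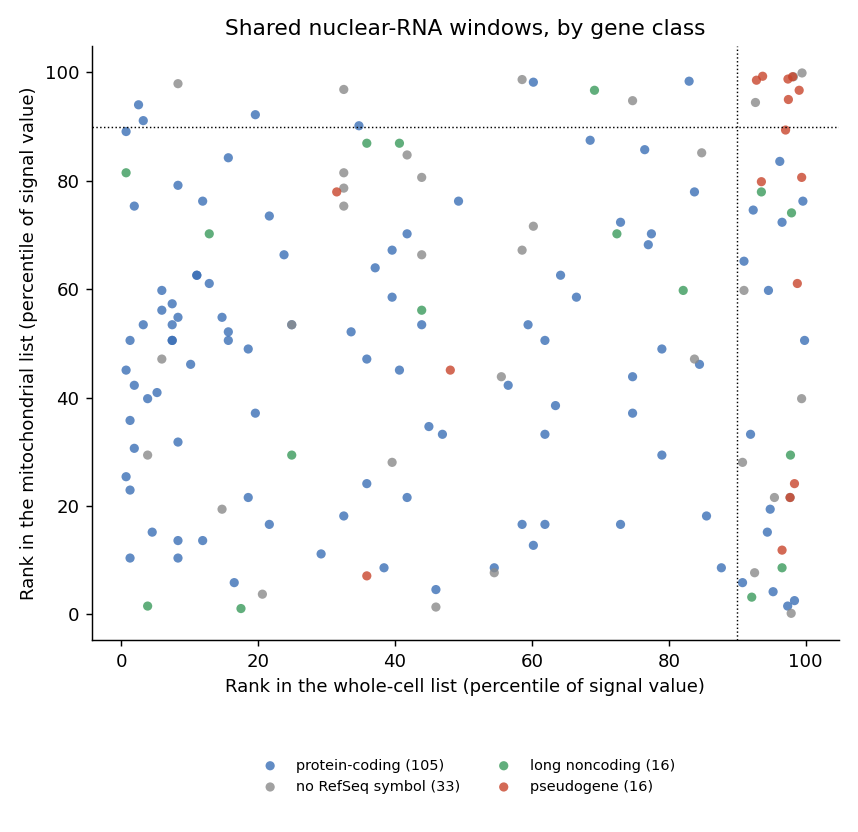
Each point is 1 of the 170 shared windows, coloured by RefSeq gene class. The x axis is the percentile of the highest signal value among the whole-cell windows it overlaps. The y axis is the percentile of its own value in the mitochondrial list. Dotted lines mark percentile 90, and the 9 windows beyond both lines are pseudogenes or genes with no RefSeq symbol.

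Several of the high ranks belonged to windows whose partner was another gene. POLR2D, a subunit gene of RNA polymerase II, had a mitochondrial value of 1.25 and overlapped by 183 bases a window of the pseudogene RPS26P19 with 3.80, the highest whole-cell value among the overlapped windows. SNRPD3 (1.49) shared its 49 bases with a window of ENSG00000286070 with 3.43. The window of OOEP, an oocyte protein gene, had 0.79 and shared 447 bases with the RPL39P3 window, which had 2.75 in whole cell and was itself shared (1.04). RAB13, which encodes a small GTPase of vesicle traffic, had 2.34 and overlapped an ENSG00000285641 window (1.32) by 233 bases. C10orf95 had 2.40 in mitochondria and 1.70 in whole cell at an identical window. PPP1R14BP3 had 1.33 and overlapped whole-cell windows of PPP1R14BP3 and ELF2, with 2.90 as the highest value. ENSG00000269987 shared 499 bases with an ENSG00000269972 window at 3.25. ENSG00000268309 and ENSG00000285304 had mitochondrial values of 2.49 and 2.26.

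Gene classes differed in their shares between the shared windows, the other nuclear mitochondrial windows and the whole-cell list. Each window was counted, although the 170 form 159 separate stretches on the same strand. Of the 170, 21 share bases with another shared window on that strand, in part under another gene ID. Protein-coding genes held 105 shared windows (61.8%), beside 80.9% of the mitochondrial windows that were not shared and 83.8% of the nuclear whole-cell windows. Pseudogenes held 16 (9.41%), beside 28 (1.90%) and 270 (2.08%). Long noncoding genes held 16 (9.41%), beside 6.11% and 4.38%. The other 33 (19.4%) carried Ensembl IDs with no RefSeq symbol, beside 10.4% and 9.43%. The list-based design allows no test of these shares over replicates.

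**Figure D2:**
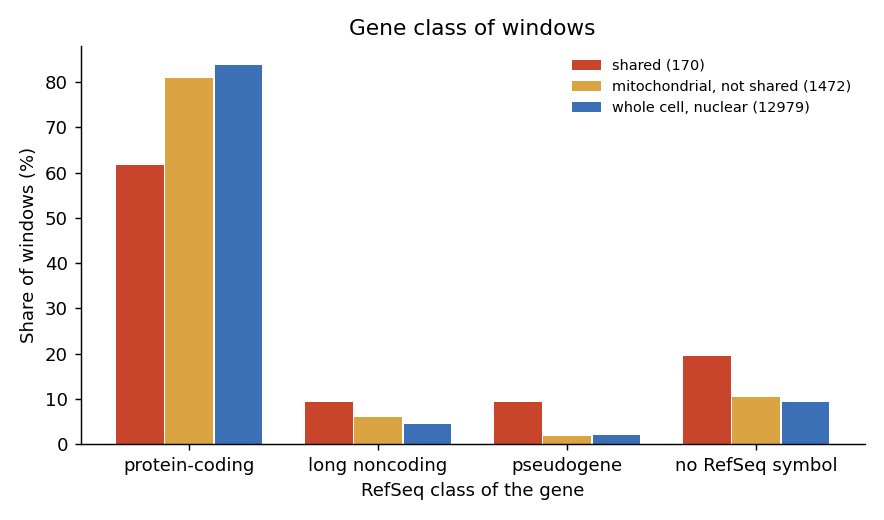
Bars give the share of windows (%, y axis) by RefSeq class of the gene (x axis) for 170 shared windows, 1472 mitochondrial windows that were not shared and 12979 nuclear whole-cell windows, which include those overlapped. Pseudogenes hold 9.41% of shared windows and 1.90% and 2.08% of the others.

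Of the 16 pseudogene windows, 8 are copies of ribosomal protein genes, and the nuclear mitochondrial list held 11 such windows in all. The whole-cell windows they overlapped ranked high, with a median percentile of 97.2, against 37.1 for shared protein-coding windows and 56.5 for shared long noncoding ones. All 270 whole-cell pseudogene windows had a median percentile of 62.7. In the mitochondrial list the shared pseudogene windows stood at a median of percentile 80.2 and the 28 that were not shared at 43.5. HMGB1P6, a copy of the chromatin protein gene HMGB1, had 1.55 in mitochondria and 3.26 in whole cell. GCSHP5 had 0.93 and 2.39, and RPL6P27 0.87 and 1.09. The window of TCEA1P2 (1.73) overlapped by 484 bases a whole-cell window assigned to GOLGA4, with 2.47, and this rank is included in the whole-cell median above. Reads of a pseudogene and its parent may be assigned to either. How such reads were placed by the authors is not stated in any source used here. These windows are thus uncertain as to their gene, and the part of shared reads in their ranks was not tested. RPL23AP42 (chr3:161429127-161429627, minus strand) and ENSG00000269888 (chr3:161429112-161429612, plus strand) lay opposite each other with the same signal values, 1.02 in mitochondria and 2.59 in whole cell. Of 103 opposite-strand pairs among nuclear mitochondrial windows, this was the 1 with equal signal value and p.

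The window of MTND2P28 was named after its values were seen. MTND2P28 is a nuclear copy of the mitochondrial gene MT-ND2, which encodes a subunit of respiratory complex I, and its window at chr1:629640-630140 on the plus strand had 1.54 in mitochondria and 2.11 in whole cell. MT-ND2 itself had 1 window in the mitochondrial list, with a signal value of 3.09, and 0 in the whole-cell list. The siRNA libraries gave MTND2P28 from 1.61 to 10.7 normalised reads, under the minimum for testing. Whether reads of this window came from the nuclear copy or from mitochondrial RNA was not tested.

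Long noncoding RNAs included nuclear-retained and cytoplasmic ones. NEAT1, the scaffold RNA of nuclear paraspeckles, had 4 shared windows on chromosome 11, more than any other gene. They started at 65422774, 65423274, 65424274 and 65425274, with mitochondrial values of 1.46, 0.89, 0.80 and 1.08 and whole-cell values of 2.63, 2.39, 2.03 and 0.99. The first 3 were thus above percentile 90 of the whole-cell list, and none was above percentile 90 of the mitochondrial list. The window starting at 65424274 overlapped whole-cell windows of NEAT1 and ENSG00000277599, with 2.03 as the highest value. NORAD, a cytoplasmic RNA that binds Pumilio proteins, had a window with 1.56 in mitochondria and 0.71 in whole cell and another with 0.74 and 0.92. The snoRNA host genes SNHG16 and SNHG10 had 1.66 and 1.32 in mitochondria and 1.13 and 1.68 in whole cell. The SNHG10 window overlapped whole-cell windows of SNHG10 and SCARNA13, with 1.68 as the highest value. MIR4300HG had 2.10 and 1.44. EPCAM-DT had 1.08 and 2.60. Of 14 nuclear-retained RNAs in a list, 10 had a whole-cell window, 4 a nuclear window of the mitochondrial list and NEAT1 a shared one. The list does not hold all nuclear-retained RNAs, so NEAT1 need not be the only one among the shared windows. The part of nuclear RNA in the mitochondrial fraction was not tested.

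RNAs of the hnRNP family were among the shared windows. Of 31 family genes listed, 25 had a whole-cell window, 12 a mitochondrial one and 6 a shared one. HNRNPA1 itself had a shared window at chr12:54284193-54284693 on the plus strand, past the middle of the gene span, with 1.28 in mitochondria and 0.89 in whole cell. HNRNPL, whose product binds CA-rich RNA, had 3 adjoining windows starting at 38843888, 38844388 and 38844888 on the minus strand of chromosome 19. Their mitochondrial values were 1.25, 0.98 and 1.20 and their whole-cell values 0.90, 1.34 and 1.13. HNRNPK, whose product binds C-rich RNA, had 1.53 and 0.82. HNRNPA3, the gene of a close relative of hnRNPA1, had 1.15 and 1.36. HNRNPU, the gene of a nuclear-matrix protein, had 0.85 and 0.91, and HNRNPH1, whose product binds G-rich RNA, 0.83 and 1.18. HNRNPA1P7, a copy of HNRNPA1 on chromosome 18, had 1.20 in both. None of these was above percentile 90 of either list.

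Other lists were counted in the same way, without a test. Of all genes with a nuclear window in the mitochondrial list, 157 had a shared one and 989 did not. Among 88 cytosolic ribosomal protein genes, 52 had a whole-cell window, 17 a mitochondrial one and 4 a shared one, RPL10, RPLP2 and RPSA among them. Among 77 mitochondrial ribosomal protein genes these counts were 41, 8 and 1, the last being MRPL33 (1.21 and 1.74). The 75 nuclear genes of oxidative phosphorylation gave 35, 10 and 0, and the 32 genes of mitochondrial DNA expression and protein import 20, 2 and 0. Of 30 SR proteins and splicing regulators, 25, 12 and 2 had such windows, the last SRRM2 (1.00 and 2.20), which encodes a large spliceosome protein, and SNRNP70, the gene of a U1 protein. Of 39 snoRNA host genes the counts were 25, 10 and 3 (EIF4A1, SNHG10 and SNHG16). Of 45 chromatin regulators they were 37, 15 and 2 (NSD1, a histone methyltransferase gene, and SMARCC2).

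The remaining lists were counted by genes with a shared window. Of 26 cell cycle genes, 21 had a whole-cell window and 6 a nuclear mitochondrial one. These counts were 205 and 35 for zinc finger genes and 26 and 5 for ubiquitin ligases and proteases. They were 13 and 14 for cytoskeletal genes, 16 and 7 for secretory genes and 23 and 1 for protocadherins. Cell cycle genes gave 2 of 26, MCM3 and CENPF, which encode a replication helicase subunit and a kinetochore protein. Zinc finger genes gave 4 of 514: ZNF235, ZNF565, ZNF711 and ZNF780B. Of 35 ubiquitin ligases and proteases HUWE1 had a shared window, of 24 cytoskeletal genes the tubulin gene TUBA1B, and of 26 secretory genes CALR, the gene of the ER chaperone calreticulin. PCDHGA3 was the 1 of 66 protocadherins, and its window (1.11) overlapped 28 whole-cell windows of protocadherin gamma genes, which are known to share 3′ exons. The 27 genes of the integrated stress response, the 20 genes listed as regulated by hnRNPA1 and the 2382 small nuclear, nucleolar and cytoplasmic RNA genes gave 0 shared windows, after 2, 4 and 0 nuclear windows in the mitochondrial list.

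Within protein-coding genes, the shared windows and both comparison sets lay toward the 3′ end. For the 97 of 105 shared windows with a RefSeq position, the median window centre stood at 0.82 of the gene span, counted from the 5′ end. It stood at 0.76 for mitochondrial windows that were not shared and at 0.79 for whole-cell windows. The last 20% of the span held 51.5%, beside 46.9% of the mitochondrial windows that were not shared and 49.3% of the whole-cell windows. The first 20% held 7.22%, beside 11.4% and 27.0%. Gene span includes introns. SRRM2, NSD1 and PCDHGA3 are examples near the 3′ end, while PFN1 and STX16 are examples at the 5′ end.

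**Figure D3:**
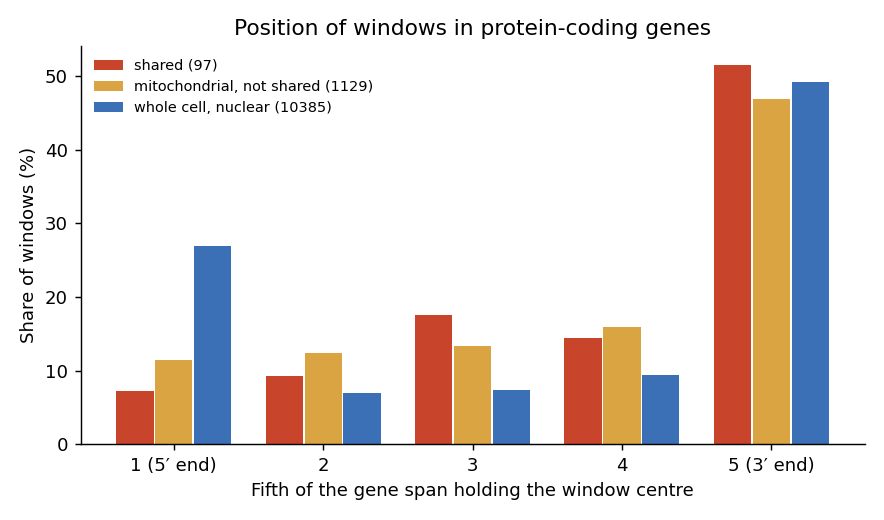
Bars give the share of windows in protein-coding genes (%, y axis) by position of the window centre along the gene span in 5 equal parts (x axis), for 97 shared, 1129 other mitochondrial and 10385 nuclear whole-cell windows. In the first part, at the 5′ end, lie 7.22% of shared and 27.0% of whole-cell windows.

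Of the shared windows, 8 (4.71%) also overlapped a cytosolic window, beside 3.12% of the mitochondrial windows that were not shared and 1.06% of the nuclear whole-cell windows. They lay in 7 genes. RPLP2, which encodes a stalk protein of the large ribosomal subunit, had 1.43 in mitochondria, 1.5 in whole cell and 1.49 in cytosol. RPL10, of the large subunit, had 1.61, 0.90 and 1.07, and RPSA, of the small subunit, 1.09, 0.73 and 1.11. SMARCC2, a core subunit gene of the SWI/SNF chromatin remodeler, and ENSG00000258199 shared 1 stretch, chr12:56173859-56174359 on the minus strand, with 1.29 and 1.22 in mitochondria, 0.79 in whole cell and 2.08 in cytosol. The whole-cell window there is assigned to ENSG00000258199. NEAT1 accounted for 2 of the 8. PHYKPL, an enzyme gene, had 0.89, 1.26 and 0.84.

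The median control level of genes with a shared window was 1238 normalised reads, over the 114 of 157 (72.6%) in the gene table. It was 1242 for genes with other mitochondrial windows only, of which 859 of 989 (86.9%) were in the table. The upper quartiles were 4060 and 2605. Whole-cell genes without a shared window had a median of 781 (5955 genes). These are levels per gene, not per length. Of the 157 genes, 43 were not in the gene table, 4 were under the minimum of 10 normalised reads in 4 libraries, and 110 were tested. No gene passed the minimum through 1 group alone.

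The knockdown tested whether RNA levels of these genes changed with hnRNPA1. HNRNPA1 had 18637, 20403, 18614 and 19348 normalised reads in the control libraries and 6506, 6413, 7185 and 5306 in the knockdown libraries. The groups lay far apart, and the mean fell to 33.0% of control, from 19250 ± 841 to 6352 ± 778 (SD, n = 4 and 4). On the log2 scale the change was -1.61 (SE 0.095, adjusted p = 2.2e-06, limma). HNRNPA1P7 had 46.8, 64.1, 54.4 and 55.1 in control and 20.6, 28.9, 23.9 and 26.6 in knockdown, also without overlap. Its log2 fold change was -1.11 (SE 0.18, adjusted p = 0.010, limma). Reads of this pseudogene can come from its parent, and their part in its fall was not tested.

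Beside these 2, 4 genes with a shared window rose. Thus 4 of 110 (3.64%) were called higher, where 0.675% of all 15267 tested genes were, and 2 (1.82%) were called lower, where 0.976% were. In either direction 6 (5.45%) were called, beside 1.65% of all. The lower and either-direction shares count HNRNPA1, the siRNA target, and its copy HNRNPA1P7, the only 2 called lower. These 2 shares are thus not read as a response of genes with a shared window. Genes with a shared window had a median control level of 1238 normalised reads, beside 275 over all genes of the table. These shares thus do not compare genes of like level. Among genes above the median expression, 309 were called in all. Of those with a shared window, 6 were then called higher and 1 lower. No share of all genes tested under that filter is given. These counts thus do not show a difference from other genes of like level. Counts this small were sensitive to single libraries. The number called higher was 0 without control library 4, 1 without control library 1 or knockdown library 3, and 2 without knockdown library 2 or 4. An unadjusted p under 0.05 was reached by 20.9% of the 110, beside 19.2% of all. For 21 genes (19.1%) the groups did not overlap, beside 11.6% of all.

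**Figure D4:**
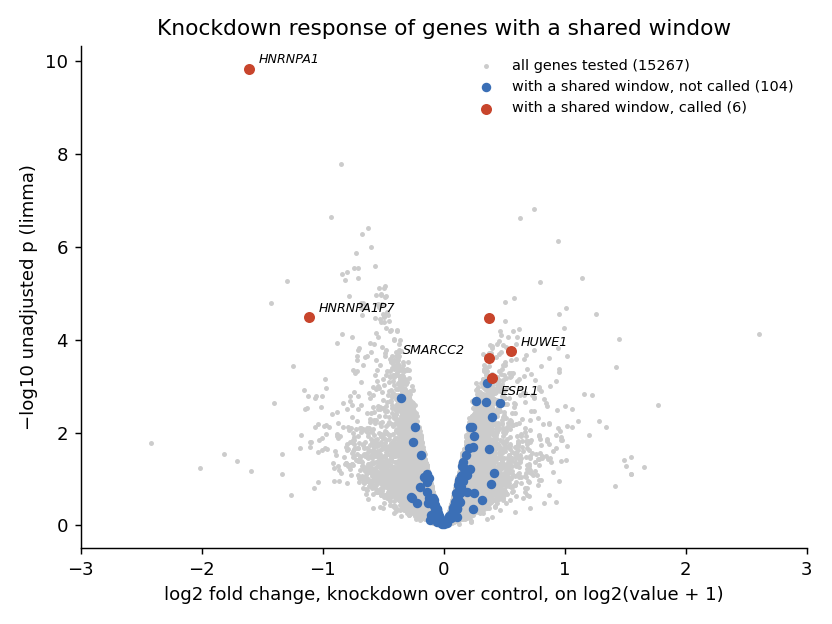
Points give the log2 fold change on log2(value + 1), knockdown over control (x axis), and the -log10 of the unadjusted limma p (y axis) for all 15267 genes tested (grey), 104 genes with a shared window that did not pass (blue) and 6 that did (red). Labels name HNRNPA1 and HNRNPA1P7, which fell, and HUWE1, ESPL1 and SMARCC2, which rose.

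HUWE1, the gene of a large HECT ubiquitin ligase, had 3811, 5005, 5628 and 4658 in control and 7147, 6119, 7572 and 7084 in knockdown. The groups did not overlap, and the log2 fold change was 0.56 (SE 0.11, adjusted p = 0.027, limma). Without control library 1, control library 4 or knockdown library 3 the call was lost (adjusted p from 0.0693 to 0.0945). Its window, chrX:53547096-53547596 on the minus strand, had 1.75 in mitochondria and 1.08 in whole cell.

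SMARCC2 had 1041, 1258, 1241 and 1126 in control and 1469, 1466, 1514 and 1601 in knockdown. Again the groups were separate, with a log2 fold change of 0.38 (SE 0.08, adjusted p = 0.031, limma). Leaving out control library 1 or 4, or knockdown library 2, 3 or 4, ended the call (adjusted p from 0.0542 to 0.107). ENSG00000258199, which shares its window, was not in the gene table.

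ESPL1, which encodes separase, the protease that opens cohesin at anaphase, had 954.6, 1069, 1224 and 1131 in control and 1251, 1504, 1541 and 1469 in knockdown. The lowest knockdown library was just above the highest control library. The log2 fold change of 0.40 (SE 0.09, adjusted p = 0.047, limma) fell short of the threshold when control library 1, 2 or 4, or knockdown library 2, 3 or 4, was left out (adjusted p from 0.0733 to 0.137). Its window, chr12:53283799-53284299 on the plus strand, had 0.95 and 0.86.

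**Figure D5:**
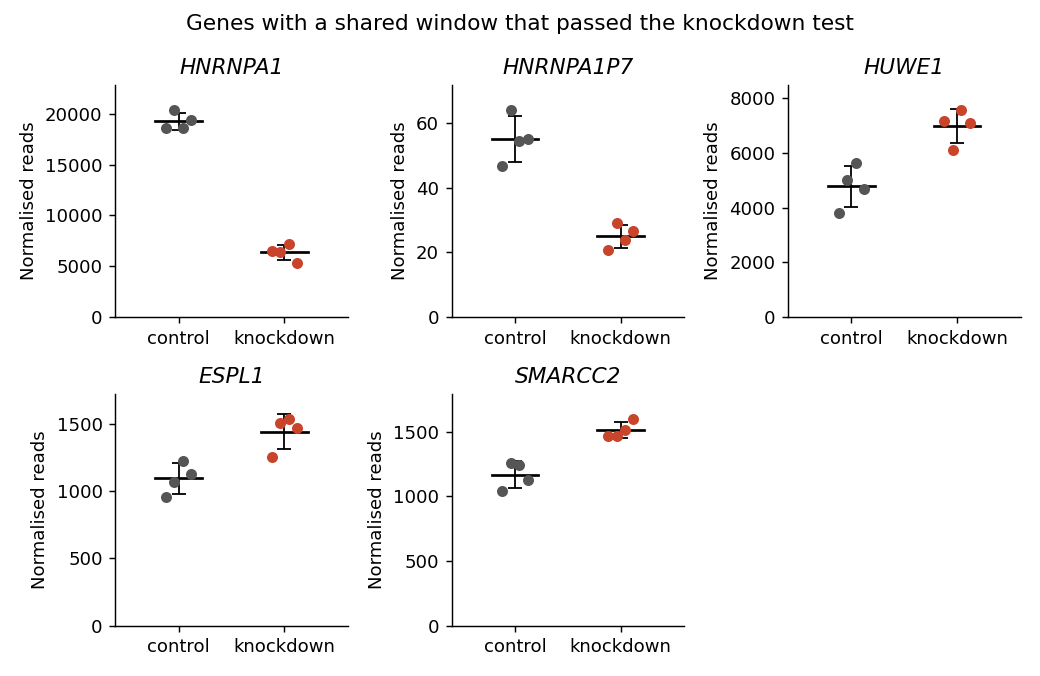
Normalised reads (y axis, from 0, a scale of its own in each panel) of 5 of the 6 genes with a shared window that passed the knockdown test, in 4 control and 4 knockdown libraries. Points are libraries, horizontal lines means and bars SD, and the 2 groups do not overlap in any panel.

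Most other genes with a shared window moved little. The median log2 fold change of the 110 was 0.04, beside 0.00 over all tested genes, and 60 were above 0 (54.5%, beside 50.8%). Their median size of change was 0.11 on the log2 scale, beside 0.14 over all genes, and only HNRNPA1 and HNRNPA1P7 changed by over 1.5-fold. SNHG10 had 359, 393, 364 and 352 in control and 285, 291, 257 and 318 in knockdown. Its groups were separate, at a log2 fold change of -0.35 (SE 0.09) that did not pass (adjusted p = 0.067, limma). PI4KA, a lipid kinase gene, was at 0.36 (adjusted p = 0.051, limma), ATP2A2, the gene of the calcium pump SERCA2, at 0.35 (adjusted p = 0.074) and STX16 at 0.46 (adjusted p = 0.076), and none passed. These 3 were named after their values were seen.

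Of the hnRNP genes, HNRNPA1 alone passed among the 6 with a shared window. HNRNPA3 had 2950, 2934, 3939 and 3286 in control and 4401, 3415, 4918 and 4553 in knockdown, with overlap (log2 fold change 0.40, SE 0.12, adjusted p = 0.099, limma). HNRNPL had a log2 fold change of 0.19 (adjusted p = 0.21), HNRNPU 0.22 (adjusted p = 0.28), HNRNPK 0.12 (adjusted p = 0.37) and HNRNPH1 0.10 (adjusted p = 0.61). Over the 30 family genes tested, 1 was called higher and 2 lower, and the median was 0.13.

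The ribosomal protein genes with a shared window did not pass either. RPL10, RPLP2 and RPSA had log2 fold changes of -0.06, -0.08 and 0.07, and over the 84 tested genes of that list 1 was called higher and 1 lower, with a median of -0.17. MRPL33 was at -0.25 (adjusted p = 0.16, limma) and SRRM2 at 0.37 (adjusted p = 0.18). NEAT1 had 763, 647, 1085 and 737 in control and 974, 918, 747 and 794 in knockdown. Its groups overlapped (log2 fold change 0.11, SE 0.14, adjusted p = 0.72, limma). Over the 45 chromatin regulators tested, 2 were called higher, SMARCC2 among them, and 0 lower. Over the 35 ubiquitin ligases and proteases these counts were 2, HUWE1 among them, and 0.

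The level of an RNA and its presence in the immunoprecipitate are separate readouts, and the lists hold no values for the knockdown. Total RNA of a gene sums over all compartments, so a change in the mitochondrial fraction alone would not be resolved by the siRNA libraries.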

How the data were processed

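The authors deposited 1 list of windows per compartment with a peak score (the same in every line), a signal score, a p-value and a q-value, and a gene table with a never-negative signal per siRNA library. Per the file headers and values, that signal is a read count scaled by 1 factor per library, called normalised reads here. Of values below 30 steps, 82.8% to 85.0% were whole multiples of 1 step within 0.02, so they were not treated as counts. The table holds 16382 genes and may be cut off at later IDs. For the siRNA arm, the submitters' processing notes name hg38, DESeq2, STAR 2.7.8a and Partek without their roles. Aligner, caller version, build and background library of the lists are not stated in any source used here.

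Windows were taken as half-open against each other, so that those sharing only an end number do not overlap. The promoter bases in capitals count both end numbers of a window, so a marked stretch may hold an end base outside it. Genes with at least 10 in at least 4 libraries were fitted with limma 3.58.1 (R 4.3.3), with a variance trend, on log2(value + 1), two-sided, with Benjamini-Hochberg adjustment over 15267 genes and calls at an adjusted p under 0.05. Fold changes on this scale understate those of low genes. The planned test fitted these values. The 18 gene lists, the shared windows and the rule for names were chosen with earlier results of these data known. The text names genes of the 10 highest windows in each list, genes with at least 3 windows, with a cytosolic overlap or called in the knockdown, up to 4 genes a list, and the windows nearest to the overlap limit. Other names were added after values were seen. Some genes that this rule names are not reported here. Figures used matplotlib 3.10.9.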

Additional observations from a re-analysis of the deposited data

Results flagged for a closer look

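In 3 of 78 groups of 4 siRNA libraries looked at, 1 library stood apart from the other 3 by the gap to its neighbour, and chance gives about 1 in 20 such groups. SERBP1P1 had 27.6 normalised reads in control library 2, where the other controls had 16.3 to 17.5. RAB13 had 509 in control library 4, where the others had 362 to 377. HMGB1P6 had 704 in control library 1, where the others had 451 to 490. None of these 3 genes passed the knockdown test with all libraries.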

How the results depend on the processing

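The numbers of shared windows and genes (170 and 157) were 158 and 146 with at least 250 shared bases, 153 and 141 for identical windows, and 212 and 197 on either strand. They were 81 and 78 at a q of at most 0.005. Where both windows had a signal value over their list's median, with ties left out, they were 41 and 41. Counting windows that only touch, an alternative added after the data were seen, gave 325 and 283. Overlap with the cytosolic list (8) became 5 at 250 bases, 4 for identical windows, 5 at the stricter q and 1 above the median signal. Called higher (4) became 1 at the stricter q, 1 above the median signal, 6 among genes above the median expression and 8 with touching windows. Called lower (2) became 0 above the median signal, where the median log2 fold change was 0.11, and 1 among genes above the median expression. Leaving out each library in turn gave 61 to 250 calls over all genes (252 with all), 0 to 6 higher, 2 to 2 lower and a median log2 fold change of 0.0065 to 0.047 for the genes with a shared window. The lowest of these medians came without control library 3, and 61 without control library 4. A pseudocount of 0.1, no filter and median centring gave 243, 224 and 237 calls, with 4 higher and 2 lower in each.

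Replicate numbers were not taken to pair the libraries. Deviations of same-numbered libraries correlated at 0.119, 0.292, 0.0431 and 0.234, and control library 3 correlated best with knockdown library 4 (0.247). With the replicate block 1191 genes were called, 12 higher and 4 lower among those with a shared window, HNRNPA3, SRRM2, SNHG10 and MRPL33 included.

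Of 52 alternatives for the 4 genes called higher, 15 ended the call, and of 25 for the 2 called lower, 0 did. For 33 named genes that were not called, 4 of 420 alternatives, all with the replicate block, gave a call. No called value changed sign. HNRNPA1 stayed between -1.67 and -1.52 and HNRNPA1P7 between -1.19 and -1.03. The lost calls, those of HUWE1, SMARCC2 and ESPL1 among them, came with a library left out. Fewer libraries entered those fits.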
